A study of Mus musculus with 4 samples.

Results

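The NF-kB pathway genes, cytokines and chemokines examined here were 49 mouse genes, found on the arrays by matching the RefSeq accession of each probe to its gene. All 49 had a named probe, among 19751 named genes in all, and 44 of them had a probe that could be tested, among 13712 tested genes. They comprised 22 pathway parts (receptors, adaptors, kinases, NF-kB subunits and the inhibitor Nfkbib), 23 inducible targets of the pathway and 4 other ligands (Il11, Il18, Il33 and Cxcl12). All 22 pathway parts, 18 of the 23 inducible targets and the 4 other ligands were tested.

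The samples were C2C12 myoblasts, a mouse line derived from muscle satellite cells, exposed as proliferating cultures to palmitate, the saturated fatty acid, at 0.1 mmol/l for 48 h, or left without it. Control medium carried equal amounts of ethanol and of fatty-acid-free albumin. The cultures were labelled as day 3 of proliferation. The treatment protocol gives 5% fetal bovine serum for both media, whereas the label of the control channel gives 10% serum, marked HS. If that label holds, serum and treatment cannot be told apart. Each of 4 two-colour arrays held 1 control culture (cyanine-3) and 1 palmitate culture (cyanine-5), labelled as biological replicates, and dyes were never swapped, so the dye and the treatment cannot be told apart. All cultures came from 1 established line, so the immune and endothelial cells of muscle were not part of the model. A value below is the log2 ratio of the palmitate to the control culture of an array unless it is called a signal, and a mean is given with the SD over the 4 arrays.

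NF-kB factors are dimers of Rel-family subunits that are held in the cytoplasm by IkB proteins. Signals from Toll-like, interleukin-1 and tumour necrosis factor receptors run through adaptors and kinases to the IkB kinase complex, which marks IkB for degradation, and the freed dimers bind kB sites in the promoters of cytokine, chemokine and enzyme genes. Several of the induced genes, such as Nfkbia and Tnfaip3, act back on the pathway as inhibitors, and in muscle the pathway is known for its part in inflammation, in wasting and in the response to saturated fatty acids.

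The promoters of the set were searched on both strands for the kB consensus decamer, with overlapping matches allowed, in the 250 bases before each RefSeq start (assembly GRCm38.p6). A match was found for 16 of 38 members with a promoter entry (42.1%), against 2225 of 27025 genes in all (8.23%). Among inducible targets it was found for 10 of 16 (62.5%), among pathway parts for 6 of 18 (33.3%) and among the other ligands for 0 of 4. A match describes the letters of the window and is not a measured binding site. Because the inducible class was listed as targets of the pathway, its share is a description and no independent support. A gene counted if any of its promoter entries held a match. Nfkbiz, Cxcl5 and Nos2 had no entry. Of the genes with a match, 4 are shown because their measurements differed most in kind: Cxcl1 (chr5:90890995-90891244, plus strand), whose ratio varied most between arrays, its neighbour Cxcl2 (chr5:90903649-90903898, plus strand), which was not above background, Csf1 (chr3:107760470-107760719, minus strand), whose ratio varied in the palmitate channel, and Nfkbia (chr12:55492648-55492897, minus strand), whose ratio with loess was near 0. They were chosen after their values were seen. Each line runs 5′ to 3′ on the strand of the gene, ends at the base before the start, and has kB matches in capitals.
Cxcl1: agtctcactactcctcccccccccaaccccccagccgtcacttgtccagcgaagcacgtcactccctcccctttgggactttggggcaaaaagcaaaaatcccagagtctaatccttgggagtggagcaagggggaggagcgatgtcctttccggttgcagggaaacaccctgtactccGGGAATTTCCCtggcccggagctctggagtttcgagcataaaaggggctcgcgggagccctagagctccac
Cxcl2: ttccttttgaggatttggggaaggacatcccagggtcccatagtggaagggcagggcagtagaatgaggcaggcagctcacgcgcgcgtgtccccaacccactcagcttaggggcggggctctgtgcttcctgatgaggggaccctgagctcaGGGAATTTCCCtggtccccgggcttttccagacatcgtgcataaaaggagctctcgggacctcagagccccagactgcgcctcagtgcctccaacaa
Csf1: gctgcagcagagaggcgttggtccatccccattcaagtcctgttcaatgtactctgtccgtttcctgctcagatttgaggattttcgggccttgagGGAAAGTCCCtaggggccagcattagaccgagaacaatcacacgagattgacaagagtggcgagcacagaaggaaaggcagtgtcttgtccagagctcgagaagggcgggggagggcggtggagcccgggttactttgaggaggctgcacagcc
Nfkbia: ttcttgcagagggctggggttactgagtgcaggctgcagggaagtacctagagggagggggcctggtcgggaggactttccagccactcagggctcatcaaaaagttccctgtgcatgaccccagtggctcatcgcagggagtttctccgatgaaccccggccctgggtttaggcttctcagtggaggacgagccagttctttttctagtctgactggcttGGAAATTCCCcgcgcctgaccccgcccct
Counted back from the start at -1, the Cxcl1 match GGGAATTTCC began at -71 and overlapped a second, GGAATTTCCC, at -70. Cxcl2, the next protein-coding gene along the chromosome, held the same pair at -97 and -96. Csf1 held GGAAAGTCCC at -154 and Nfkbia held GGAAATTCCC at -29. In the Il6 window the match was GGGATTTTCC at -44, whereas the windows of Ptgs2, Tnf and Rela held none.

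Control channels had 57.6% to 64.0% of gene probes well above background, and palmitate channels had 61.9% to 70.7%. Replicate 1 stood apart: over the tested probes its log2 ratios correlated at -0.225 to 0.057 with those of the other arrays, which correlated with each other at 0.72 to 0.85. The 28S ribosomal RNA (Rn28s1) differed on the same array, with a log2 ratio of 1.42 against -2.49, -2.14 and -3.46 on replicates 2 to 4. The part of either in the results was not tested, and counts are given with and without replicate 1. Replicate 1 was singled out because it disagreed with the other arrays in these same data. An adjusted p without it therefore tends to be too small and is a description. With replicate 2, 3 or 4 left out in its place, 0 genes had an adjusted p under 0.05. All 6 myoblast markers were tested (median 0.21, with Myod1 at 0.28, Myf5 at 0.55, Des at -0.13 and Cdh15 at 0.0090), and 2 were higher at an unadjusted p under 0.05. Of all tested genes 14.0% were higher at that p. Of 5 markers of differentiated muscle 4 were tested (median 0.25), and 2 were higher at that p (Myog at 0.37 and Myh1 at 0.25). Of these 4, 3 had a mean above 0 and 1 had a mean below it (-0.080). Of 5 macrophage markers 3 could be tested (Adgre1 -0.08, Csf1r -0.22 and Itgam 0.13). Of 4 endothelial markers 2 were tested, and Kdr differed between arrays as well (0.98, -1.33, -1.09 and -1.29). At an adjusted p under 0.05 without replicate 1, 2 myoblast and 2 differentiated-muscle markers were higher, where 16.1% of all genes were. Both tested endothelial markers and 1 of the 3 macrophage markers were lower there, where 14.3% of all genes were.

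With all 4 arrays, 0 of the 44 genes passed the test for a change of at least 1.6-fold at an adjusted p of 0.05 (limma with Benjamini-Hochberg adjustment), against 0 of 13712 genes, a background of 0%. At an unadjusted p under 0.05, 7 members were higher (Nfkbiz, Ikbkg, Il1rl1, Ptgs2, Ikbkb, Il33 and Il6st), where 14.0% of all tested genes were, and 7 were lower (Cx3cl1, Irak1, Chuk, Cxcl12, Rela, Nfkb2 and Tnfaip3), where 14.1% were. Both directions together made up 31.8% of the members against 28.2% of all genes. The unadjusted counts were 5 higher and 8 lower by the unpaired test that the methods of the study name, run on the same values, and 8 and 7 by limma with a trended and robust variance. By neither did any member pass the adjusted test. Of the 22 pathway parts 4 were higher and 4 lower, of the 18 inducible targets 2 and 2, and of the 4 other ligands 1 and 1. At an adjusted p under 0.05 without replicate 1, the counts for the same classes were 6 and 4, 3 and 2, and 1 and 1.

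Without replicate 1, 10 members were higher at an adjusted p under 0.05, where 16.1% of all genes were, and 7 were lower, where 14.3% were. Together these were 38.6% of the members against 30.4% of all genes. The 10 were Nfkbiz, Ikbkb, Ptgs2, Il1r1, Il1rl1, Csf1, Il18, Irak4, Ikbkg and Il6st, and the 7 were Nos2, Cx3cl1, Irak1, Nfkb2, Chuk, Cxcl12 and Relb. Only Nfkbiz among the 44 also passed the 1.6-fold limit, as did 947 of all genes. The median log2 ratio on 4 arrays was -0.0022 for pathway parts, -0.015 for inducible targets and 0.045 for other ligands, against 0.0051 for all genes. By role it was -0.28 for NF-kB subunits, -0.21 for chemokines, -0.043 for adaptors and kinases, 0.017 for receptors, 0.048 for cytokines and 0.0082 for inhibitors. The subunit and chemokine medians stayed below 0 under every scaling tried, of which those that differ by a constant per array are not separate checks. When arrays were centred on their median in place of loess, they shrank to -0.12 and -0.10. Under that centring the medians of cytokines and of adaptors and kinases turned sign (-0.13 and 0.12). Those of receptors and of inhibitors rose to 0.27 and 0.20. The same centring, after subtracting the shift of all probes, moved the members by differing amounts: Rela had a mean of -0.055 (adjusted p = 0.848), Chuk -0.14, Cxcl12 -0.12, Tnfaip3 -0.073 and Ccl2 -0.015, Nfkbia and Nfkb1 had 0.26 each, and Csf1 had 0.56, while Nfkbiz had 1.18. Of the 20 members chosen to be listed in full, 18 kept their direction there. Among them were also Irak1 (-0.28), Nfkb2 (-0.30), Cx3cl1 (-0.29), Il6st (0.44) and Il33 (0.64). The means of Nfkbib (0.18) and Il6 (-0.16) turned sign.

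**Figure D1:**
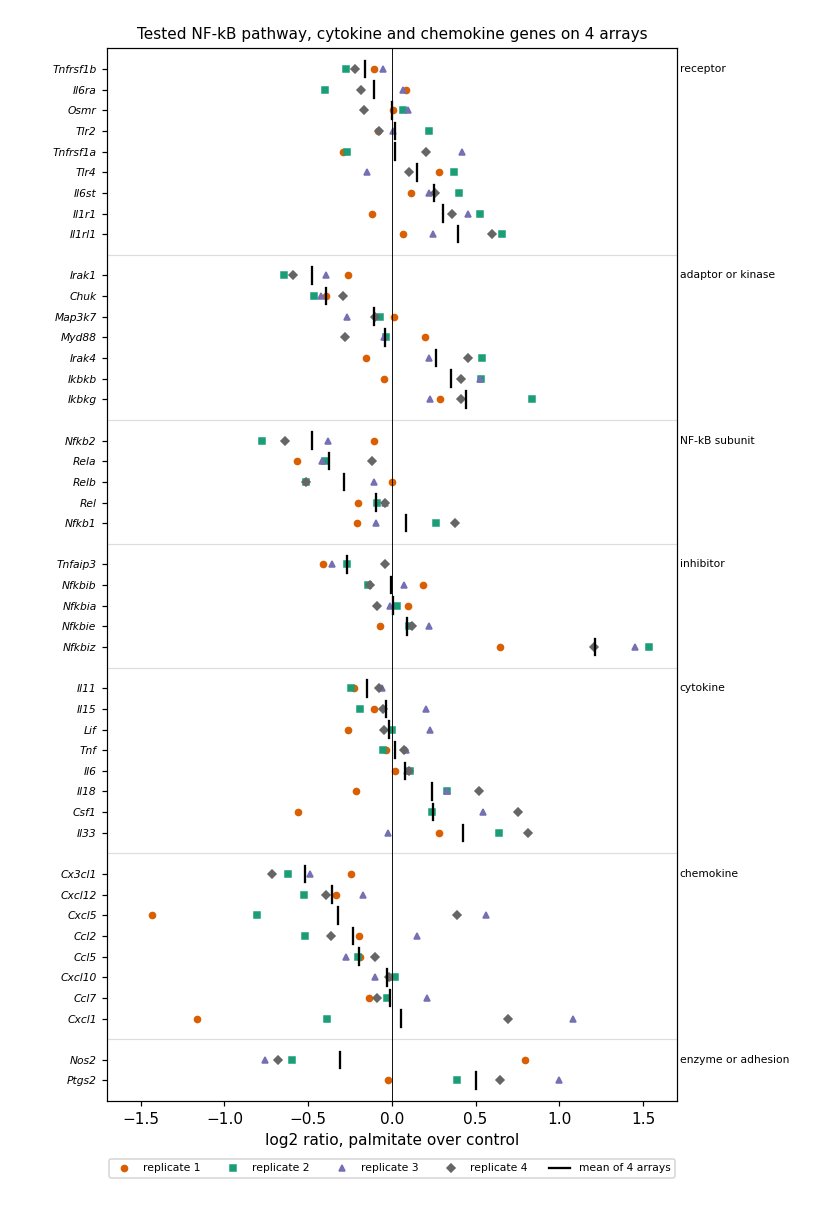
Ratio between the palmitate and control cultures on a log2 scale (x axis) for each of the 44 tested genes (rows, grouped by role), with a symbol per array and a bar at the mean of 4 arrays. Nfkbiz lies to the right of the other genes' means at 1.21, and Cxcl1, Cxcl5 and Nos2 have arrays on both sides of 0.

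Among the receptors, Il1rl1 (the interleukin-33 receptor ST2) and Il6st (gp130, the shared signal-transducing subunit of interleukin-6 family receptors) were above 0 on all 4 arrays. Il1rl1 gave 0.07, 0.66, 0.25 and 0.60 on replicates 1 to 4. Its mean was 0.39 ± 0.28 (SD, n = 4; limma adjusted p = 0.129). A second tested probe of Il1rl1 had a mean of 0.061. Il6st gave 0.11, 0.40, 0.22 and 0.26, with a mean of 0.25 ± 0.12 and an adjusted p of 0.149. Without replicate 1 the adjusted p was 0.0147 for Il1rl1 and 0.045 for Il6st, at means of 0.50 and 0.30.

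Il1r1, the signalling receptor of interleukin-1, was chosen for description after its values were seen. It gave -0.12 on replicate 1 and 0.53, 0.45 and 0.36 on the others, so that 1 array lay on the opposite side of 0 (mean 0.30 ± 0.29, adjusted p = 0.19, and 0.0111 without replicate 1). The Toll-like receptors were nearer 0, at 0.02 ± 0.14 for Tlr2 and 0.15 ± 0.23 for Tlr4. Tnfrsf1a, the main receptor of tumour necrosis factor, had 2 arrays below 0 and 2 above it (-0.29, -0.27, 0.42 and 0.20), and its second probe averaged -0.47. Tnfrsf1b, the other receptor of that ligand, was below 0 on every array at -0.16 ± 0.10. Il6ra (-0.11) and Osmr (-0.0002), the receptor chains for interleukin-6 and oncostatin M, had arrays on both sides of 0.

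Among the adaptors and kinases, the members of the IkB kinase complex stood on both sides of 0. Chuk, the kinase IKK-alpha, gave -0.40, -0.46, -0.42 and -0.29. These 4 values lay close together and all below 0 (mean -0.39 ± 0.07, adjusted p = 0.0912, and 0.0174 without replicate 1), but with median centring the mean was -0.14 (adjusted p = 0.566). Ikbkb, the kinase IKK-beta, gave -0.05, 0.53, 0.52 and 0.42, with replicate 1 near 0 and the others above it. Its mean was 0.36 ± 0.28 (adjusted p = 0.144, and 0.00762 without replicate 1). Ikbkg, the regulatory subunit NEMO, was above 0 on all 4 arrays, at 0.29, 0.84, 0.23 and 0.41. It averaged 0.44 ± 0.27 (adjusted p = 0.109, and 0.0277 without replicate 1), and its second probe averaged 0.61.

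Irak1, a kinase downstream of interleukin-1 and Toll-like receptors, gave -0.26, -0.65, -0.40 and -0.59 with its brightest probe. All 4 arrays were below 0 (mean -0.47 ± 0.18, adjusted p = 0.0912, and 0.0069 without replicate 1). Its other 2 probes averaged -0.18 and -0.37 and each had arrays on both sides of 0. Irak4, which acts upstream of Irak1, is named here for its values and gave -0.16, 0.54, 0.22 and 0.45. As with Ikbkb and Il1r1, replicate 1 was the array below 0 (adjusted p = 0.253, and 0.0224 without it). Myd88, the adaptor of both receptor families, averaged -0.043 ± 0.19, and Map3k7, the kinase TAK1, averaged -0.11 with its brightest probe but 0.26 and 0.30 with the other 2. Of the 10 tested members with more than 1 tested probe, 4 had probe means of both signs.

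Of the 5 NF-kB subunits, 4 were below 0 on all 4 arrays. Rela, the p65 subunit that carries a transactivation domain, gave control-channel log2 signals of 14.91, 14.76, 14.83 and 14.70 and palmitate-channel signals of 14.34, 14.36, 14.42 and 14.58. The channels did not overlap, and the ratios were -0.57, -0.40, -0.42 and -0.12 (mean -0.38 ± 0.19, adjusted p = 0.106, and 0.0515 without replicate 1). With median centring the mean of Rela was -0.055. Nfkb2, the precursor of the p52 subunit of the non-canonical branch, gave -0.10, -0.78, -0.38 and -0.64. It averaged -0.47 ± 0.30 (adjusted p = 0.107, and 0.00732 without replicate 1), with replicate 1 nearest 0. Relb, the usual partner of p52, is named for its values, which were -0.00091, -0.51, -0.11 and -0.52 (adjusted p = 0.197, and 0.0413 without replicate 1).

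Nfkb1, the precursor of p50, was the subunit with arrays on both sides of 0. Its ratios were -0.21, 0.26, -0.09 and 0.38, and the mean of 0.09 ± 0.28 did not differ from 0 beyond the spread of the arrays (adjusted p = 0.685). Rel averaged -0.092 ± 0.076, with a control signal well above background on 1 of 4 arrays. Relative to all genes, 12 of the 44 members (27.3%) were lower on every array, where 16.2% of tested genes were, and 5 (11.4%) were higher on every array, where 16.4% were. On replicates 2 to 4 alone, 15 members (34.1%) were lower on every array, where 29.4% of genes were, and 12 (27.3%) were higher, where 32.4% were. The 12 members that were lower on all 4 arrays were the 4 subunits, Chuk, Irak1, Tnfrsf1b, Tnfaip3, Il11, Ccl5, Cx3cl1 and Cxcl12. These counts are from the ratios with loess, and Relb was barely below 0 on replicate 1 (-0.00091).

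Among the inhibitors, Nfkbiz had the largest mean ratio of the 44 genes. Nfkbiz encodes IkB-zeta, a nuclear IkB protein that binds p50 and is known as a co-regulator of a subset of NF-kB targets. Its control signals were 7.95, 7.80, 7.61 and 7.61 and its palmitate signals 8.60, 9.34, 9.06 and 8.82 on the log2 scale. Every palmitate culture was above every control culture. The ratios were 0.65, 1.53, 1.45 and 1.21, a mean of 1.21 ± 0.40 (SD, n = 4) or 2.31-fold, with an adjusted p of 0.0912 (limma). Replicate 1 had the smallest of the 4 ratios, and without it the mean was 1.40 ± 0.17 with an adjusted p of 0.000375. That p is a description, since replicate 1 was set apart by these same data. An exact sign-flip test over 4 arrays, two-sided, cannot go below p = 0.125, which is what Nfkbiz gave.

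The classical IkB genes had smaller mean ratios. Nfkbia (IkB-alpha), whose promoter with its kB match is printed above, gave 0.10, 0.03, -0.01 and -0.09, a mean of 0.0082 ± 0.077 (adjusted p = 0.957, and 0.283 at a mean of 0.26 with median centring). Nfkbib (IkB-beta) gave 0.18, -0.14, 0.07 and -0.13, with 2 arrays on each side of 0 and an adjusted p of 0.981. A second Nfkbib probe was below 0 on all 4 arrays (-0.28, -0.31, -0.08 and -0.20, adjusted p = 0.174), and the remaining one averaged -0.081. Nfkbie (IkB-epsilon) averaged 0.09 ± 0.12. Tnfaip3, the ubiquitin-editing enzyme A20 that damps receptor signals, was below 0 on all 4 arrays at -0.41, -0.27, -0.36 and -0.04 (mean -0.27 ± 0.16, adjusted p = 0.149, and 0.128 without replicate 1).

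The cytokines best known as NF-kB products were dim. Il1a and Il1b, which encode interleukin-1, were well above background on 0 arrays in either channel. Tnf was above background on 4 arrays with palmitate and on 0 without it, yet its ratios of -0.035, -0.055, 0.085 and 0.072 lay on both sides of 0 (adjusted p = 0.913), so no direction could be drawn. Il6 gave 0.02, 0.11, 0.09 and 0.10, which is above 0 on all 4 arrays but small (mean 0.08 ± 0.04, adjusted p = 0.542), and with median centring its mean was -0.16. Lif, a cytokine of the same family, averaged -0.019 ± 0.20, and Il15, a cytokine made by muscle, averaged -0.036 ± 0.17 with its control signal above background on 2 arrays.

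Csf1, the growth factor of macrophages, was bright in both channels and differed between arrays. Its control signals were 14.49, 14.43, 14.47 and 14.44, and its palmitate signals were 13.94, 14.67, 15.02 and 15.20. The control cultures thus lay within 0.063 of each other, and the palmitate cultures spanned 1.26, with replicate 1 below all controls and the other 3 above them. The ratios were -0.56, 0.24, 0.55 and 0.76 (mean 0.25 ± 0.58, adjusted p = 0.484, and 0.0169 at a mean of 0.51 without replicate 1). Another 2 probes, named for a different RefSeq transcript of Csf1, had narrower ratios of -0.32 to 0.12 and of -0.29 to 0.16, with means of -0.071 and -0.026. On all 3 probes replicate 1 was the lowest array and replicate 4 the highest.

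Of the other ligands, Il33, an alarmin of the interleukin-1 family and the ligand of Il1rl1, gave 0.28, 0.64, -0.02 and 0.81. It was above 0 on 3 of 4 arrays (mean 0.43 ± 0.37, adjusted p = 0.148, and 0.0622 without replicate 1). Il18, of the same family, is named for its values, with -0.21 on replicate 1 and 0.33, 0.33 and 0.52 on the others (adjusted p = 0.291, and 0.0185 without replicate 1). Il11 was below 0 on all 4 arrays at -0.15 ± 0.10.

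Of the 8 tested chemokines, 7 had a mean below 0, as did 6752 of 13712 tested genes. With median centring 6 of the 8 were below 0, and from the processed signals all 8. Without replicate 1, Ccl7 (0.031) and Cxcl5 (0.048) lay above 0 and the rest of the 7 below it. Cx3cl1, the membrane-tethered chemokine fractalkine, had control signals of 12.64, 12.46, 12.67 and 12.37 and palmitate signals of 12.39, 11.83, 12.18 and 11.66. Its ratios of -0.24, -0.62, -0.49 and -0.71 were below 0 on every array (mean -0.52 ± 0.20, adjusted p = 0.0912), although the lowest control signal was below the highest palmitate signal. Without replicate 1 the mean was -0.61 with an adjusted p of 0.00444. Cxcl12, the ligand of Cxcr4 and a guide of muscle progenitor migration, gave -0.33, -0.52, -0.17 and -0.40 (mean -0.36 ± 0.15, adjusted p = 0.103, and 0.0341 without replicate 1), while its second probe averaged 0.084.

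Ccl2, the monocyte attractant MCP-1, had even control signals of 12.00, 12.01, 12.02 and 12.10 and palmitate signals of 11.81, 11.49, 12.17 and 11.74. Replicate 3 was above its control and the other 3 below theirs (ratios -0.20, -0.52, 0.15 and -0.36, mean -0.23 ± 0.29, adjusted p = 0.282). Its neighbour on the chromosome, Ccl7, averaged -0.01 ± 0.15. Ccl5, a T-cell attractant, was below 0 on all 4 arrays at -0.19 ± 0.07 (adjusted p = 0.192), and the interferon-induced Cxcl10 stayed at -0.028 ± 0.051. Ccl20, an attractant of Ccr6-bearing cells, was above background in 1 control culture and in 0 palmitate cultures, and Cxcl2 and the adhesion molecule Icam1 were in none of either.

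Cxcl1 and Cxcl5, neutrophil attractants that both signal through Cxcr2, are described for their spread, which was noticed in the data. Cxcl1 had control signals of 10.48, 9.96, 10.24 and 10.48 and palmitate signals of 9.31, 9.57, 11.32 and 11.18. Palmitate cultures 1 and 2 lay below all controls and cultures 3 and 4 above all controls, which gave ratios of -1.16, -0.39, 1.08 and 0.69. The mean was 0.06 ± 1.02, and no direction could be drawn from it (adjusted p = 0.933). Cxcl5 had control signals of 13.05, 12.78, 12.85 and 13.15 and palmitate signals of 11.62, 11.97, 13.41 and 13.54. The order was the same, with arrays 1 and 2 below 0 and arrays 3 and 4 above (-1.43, -0.80, 0.56 and 0.39, mean -0.32 ± 0.96). The palmitate cultures spanned 2.01 for Cxcl1 and 1.92 for Cxcl5, against 0.53 and 0.37 for the control cultures.

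**Figure D2:**
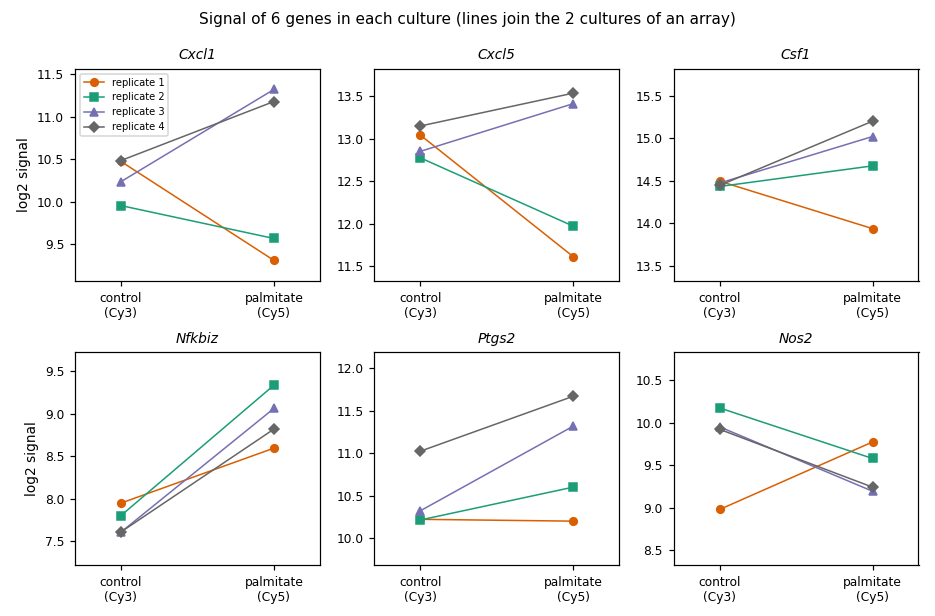
Log2 signal (y axis) of 6 genes in the control and palmitate culture of each array, with a line joining the pair. Cxcl1 and Cxcl5 have 2 lines that go down and 2 that go up, Csf1 has 1 that goes down, all 4 Nfkbiz lines go up, and for Nos2 the line of replicate 1 runs against the other 3.

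The induced enzymes also differed between arrays. Ptgs2, the cyclooxygenase COX-2 of prostaglandin synthesis, had control signals of 10.22, 10.21, 10.32 and 11.02 and palmitate signals of 10.20, 10.60, 11.32 and 11.67. Its ratios were -0.02, 0.39, 1.00 and 0.65, with replicate 1 near 0 and the others above it (mean 0.50 ± 0.43, adjusted p = 0.137, and 0.00912 without replicate 1). Nos2, the inducible nitric oxide synthase, is named for its values and gave 0.79 on replicate 1 and -0.59, -0.76 and -0.68 on the others. The control culture of replicate 1 had a signal of 8.98 against 9.92 to 10.17 in the other control cultures, whereas the palmitate cultures ran from 9.20 to 9.77. Its mean was -0.31 ± 0.74 (adjusted p = 0.481), and without replicate 1 it was -0.68 ± 0.08 with an adjusted p of 0.00296.

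By the brightest tested probe of each gene, the spread between arrays was wide in some inducible targets and in no pathway part. Of 18 inducible targets, 5 (27.8%) had a range of more than 1 log2 unit over the 4 arrays, namely Cxcl1 (2.25), Cxcl5 (1.99), Nos2 (1.55), Csf1 (1.31) and Ptgs2 (1.02). Among 22 pathway parts the count was 0, the widest being Tnfrsf1a at 0.711, and among all tested genes 9.26% exceeded the limit. The median SD was 0.186 for inducible targets, 0.212 for pathway parts and 0.206 for all genes, so the wide ranges lay in those 5 genes and not in the class as a whole. The contrast depended on the probe: 2 other probes of Irak1, a pathway part, had ranges of 1.07 and 1.13, and the other 2 probes of Csf1 had ranges of 0.438 and 0.442. It also depended on replicate 1, without which Cxcl1 (1.47) and Cxcl5 (1.36) were over 1 among inducible targets, with 0 pathway parts by the brightest probe and 1.77% of all genes. The 2 other probes of Irak1 kept their ranges of 1.07 and 1.13 without replicate 1. The limit of 1 was set with these values in view, and the comparison is a description with no test.

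**Figure D3:**
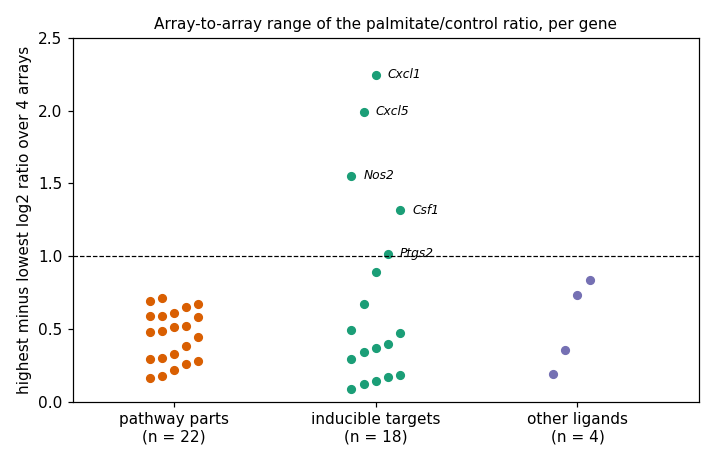
Highest minus lowest log2 ratio over 4 arrays (y axis) for each tested gene, by class, with a dashed line at 1. Each gene is plotted by its brightest tested probe, by which 5 inducible targets lie above the line and are named, and no pathway part does.

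**Figure D4:**
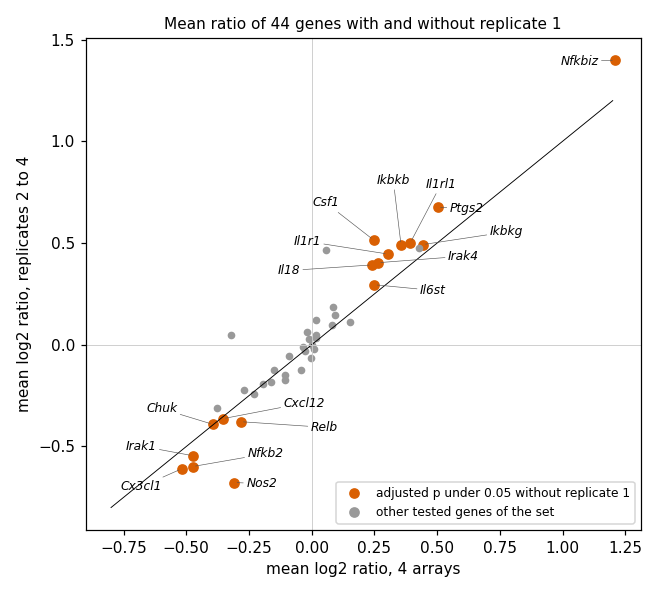
Mean log2 ratio on replicates 2 to 4 (y axis) against the mean on all 4 arrays (x axis) for the 44 genes, with the line of equality. The 17 orange points had an adjusted p under 0.05 without replicate 1. Those with a mean above 0 all lie above the line, and those with a mean below 0 lie below it except Chuk, which is next to it.

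Other genes of the pathway were counted at an unadjusted p under 0.05, to be read against 28.2% of all tested genes, and at an adjusted p under 0.05 without replicate 1, to be read against 30.4%. Of 49 tested parts of NF-kB signalling outside the set, 3 were higher and 3 lower (12.2%, median -0.0062), and 5 and 6 were without replicate 1 (22.4%, median 0.027). They included Cul1, the scaffold of the ubiquitin ligase that handles phosphorylated IkB (0.53 ± 0.22), Ripk1, a kinase of the tumour necrosis factor receptor complex (0.39 ± 0.20), and Sharpin, a subunit of the linear ubiquitin ligase (-0.44 ± 0.25). Of 28 tested NF-kB targets outside the set, 5 were higher and 2 lower (25.0%, median 0.079). Without replicate 1, 9 were higher and 2 lower (39.3%, median 0.18). Of these 4 were also past the 1.6-fold limit, as were 3 of the 49 signalling parts and 947 of 13710 genes in all. On 4 arrays Fth1, the heavy chain of the iron store ferritin, had a mean of 0.69 ± 0.23, the survival factor Bcl2l1 had 0.43 ± 0.18 and the costimulatory receptor Tnfrsf9 had 0.48 ± 0.24.

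Of 34 tested genes of the interleukin-6 family and its JAK-STAT signalling, 4 were higher and 7 lower (32.4%, median -0.079), and 5 and 7 were without replicate 1 (35.3%). Without replicate 1, 2 of the 34 were also past the 1.6-fold limit. Socs1, a feedback inhibitor of JAK kinases, had a mean of -0.64 ± 0.27, and the gp130 ligand Ctf1 had -0.43 ± 0.16. Of 15 tested chemokines and chemokine receptors outside the set, out of 43 on the array, 2 were higher and 2 lower (26.7%, median -0.033), and 2 and 4 were without replicate 1 (40.0%). Past the 1.6-fold limit there were 0 of the 15. Ackr3, a scavenger receptor of Cxcl12, had a mean of 0.48 ± 0.38, Cxcl14 had 0.32 ± 0.27, and Cxcr6, the receptor of Cxcl16, had -0.33 ± 0.13. None of these genes passed the adjusted test on 4 arrays, and the smallest adjusted p among those named was 0.0912, shared by Fth1, Cul1 and Socs1.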

How the data were processed

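Feature Extraction 10.7.3.1 (Agilent), per the submitters' processing notes, read the 4 arrays of 44397 spots, 43020 of them gene spots. From the files deposited by the authors, the uncorrected median intensity of each spot and of its local background was used. Their processed intensity values, deposited by the authors beside these, are already corrected for background and dye. The series table that the authors deposited gives log2 ratios equal to those of the processed values, palmitate to control, and served as an alternative.

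In limma 3.58.1 under R 4.3.3 (with statmod 1.5.0, and the package data.table, version 1.17.8), normexp with an offset of 50 corrected the background, loess the dyes, and Aquantile scaled the channel signals between arrays. The normexp parameters were estimated on spots whose local background was not flagged as uneven, a choice made after the data were seen. On replicate 4, 4 control and 5 palmitate spots lay more than 50 units below flagged backgrounds. With them the correction added a median of 351 and 1194 units to the signals of the channels, against 41.5 and 57.9 without them. Repeated spots were averaged by probe. Probes entered the test if either channel was well above background on every array (24169 of 39429), and 26055 were named through their RefSeq accession. The brightest tested probe stood for a gene. Means were tested against 0 by limma, pairing the cultures of an array, with Benjamini-Hochberg adjustment over all tested probes, and a call needed an adjusted p under 0.05 and a 1.6-fold change. The script was tested on simulated data.

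The members, lists and tests were chosen with earlier results of these data known. Values on every array were given for 20 members: those with an unadjusted p under 0.05 or a mean change of 1.6-fold, and Nfkbia, Nfkbib, Tnfaip3, Nfkb1, Rela, Ccl2, Il6, Cxcl12 and Csf1. From each other list, up to 3 genes with the lowest p were named. Any further gene with array values was chosen after its values were seen. The spread without replicate 1 and over every probe was added after the data were seen. The alternatives covered the background, the dyes, probe filters, the test, the probe of a gene, the class of 4 subunits and each array left out. The number of arrays limits the precision.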

Additional observations from a re-analysis of the deposited data

How the results depend on the processing

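Where a scaling moved the median of all tested probes, that shift was subtracted first (0.399 for median centring, 0.849 without dye normalization and -0.180 for channels set to their 75th percentile). These scalings differ from each other by a constant per array, so after the subtraction their means were nearly the same by construction. They are not separate checks. The median of the pathway parts then became 0.18 under each of these, and it was -0.068 with a limit of 50% on the coefficient of variation. Without dye normalization the members with an unadjusted p under 0.05 numbered 2 higher and 0 lower. The limit on the coefficient of variation left 12432 genes, of which 129 passed the test against 0 of 13712, and 1 member passed (Nfkbiz). An adjusted p under 0.05 was reached there by 3 members: Nfkbiz (0.0473), Cx3cl1 (0.0484) and Irak1 (0.0494).

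Each array held 1 pair of cultures. In the fit with no replicate block, which ignores the pairing, 1 member passed (Nfkbiz, adjusted p = 0.0473) of 11 genes in all. Leaving out 1 array at a time, 0 to 1 members passed, 2 to 11 were higher at an unadjusted p under 0.05, and the pathway median ran from -0.036 to 0.012. The 1 was Nfkbiz, without replicate 1, when 947 genes passed in all, and 0 genes passed without replicate 2, 3 or 4. Over all 18 alternatives the mean of Nfkbiz ran from 0.99 to 1.65 and its adjusted p from 0.000375 to 0.429. The main fit estimated normexp on unflagged spots, a choice made after the data were seen. With normexp estimated on all spots, added as an alternative, Nfkbiz had a mean of 0.99 with an adjusted p of 0.118.

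Signs turned for 5 of the 20 genes. Nfkbib was 0.011 from the processed signals and from the deposited table, and -0.067 to 0.043 with 1 array left out. It was 0.18 under the 3 scalings that differ by a constant per array, which are not separate checks. Il6 was -0.16 and both Nfkbia and Nfkb1 were 0.26 under the 3 scalings, which also brought Rela from -0.38 to -0.055, Chuk from -0.39 to -0.14, Cxcl12 from -0.36 to -0.12 and Tnfaip3 from -0.27 to -0.073. Csf1 was -0.071 under the limit on variation, where another probe stood for it. With 1 array left out Nfkbia ran from -0.022 to 0.040 and Nfkb1 from -0.013 to 0.18. The cause of the other changes was not tested. Probes near background limit what can be said of Tnf, Rel and Il15.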
